A study of Mus musculus with 6 samples.

Results

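The genes described here are 36 genes of iron handling, heme synthesis and breakdown, and enzymes typical of red cell precursors, chosen by name and role. Of the 36, 34 had a probe set annotated to that gene alone, among 18193 such genes on the array, and each gene was read from its brightest probe set by the mean of all 6 arrays. Ftl1, the ferritin light chain, and Trf, transferrin, had no probe set of their own. Alas2, Tfr2 and Flvcr2 were too dim to test, which left 31 of the 36 among 10810 genes tested.

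The arrays (Affymetrix, 1 colour) read RNA of myeloid cells sorted from the femurs and tibias of female HdcGFP mice, bred on C57BL/6. In them green fluorescent protein reports activity of Hdc, which encodes histidine decarboxylase, the enzyme that makes histamine. All cells bore CD11b and Gr1, and the sort split them into reporter-positive or high cells (GFP_plus, 3 arrays) and reporter-negative or low cells (GFP_min, 3 arrays). The labels give no age or treatment and do not say whether each sample is a mouse of its own; p-values here therefore rest on the spread among these samples, possibly a technical one. The description of GFP_min replicate b reads Gr1-negative, against Gr1-positive in its sorted-cell label, and counts without it are given. Values are log2 expression as deposited, so a difference of 1 is a doubling, and a difference is GFP_plus minus GFP_min. A gene was called higher or lower at an adjusted p under 0.05 (limma, Benjamini-Hochberg over all tested probe sets).

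Iron enters most cells bound to transferrin through the transferrin receptor, is reduced, leaves the endosome, and is then stored in ferritin or taken into mitochondria. There it is built into iron-sulfur clusters and, in the last step of heme synthesis, into the porphyrin ring. A pair of iron regulatory proteins read the cell's iron and set the translation or stability of the receptor and ferritin messages; red cell precursors run this pathway at high rate with their own form of its opening enzyme, and neutrophil precursors need heme for myeloperoxidase and the oxidase.

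Array medians lay between 2.82 and 2.88, and arrays correlated at 0.996 to 0.998 within a group and at 0.978 to 0.982 between groups. Hdc, the basis of the sort, averaged 12.01 ± 0.06 in GFP_plus and 11.19 ± 0.03 in GFP_min (SD, n = 3 each). The mean over 11 monocyte markers was 6.91 to 7.04 in GFP_plus and 11.9 to 12.0 in GFP_min, and over 11 basophil and eosinophil markers 4.25 to 4.32 in GFP_plus and 2.87 to 2.90 in GFP_min. For 12 neutrophil markers it was 13.6 to 13.7 in GFP_plus and 13.4 to 13.5 in GFP_min, and for 12 marrow macrophage markers 4.56 to 4.72 in GFP_plus and 4.33 to 4.48 in GFP_min. The gap between 3' and 5' signal of Gapdh, a sign of RNA quality, was 0.59 to 0.66 in GFP_plus and 0.26 to 0.37 in GFP_min (exact permutation test, two-sided, p = 0.1, the smallest that 3 against 3 allows). The same gap of Actb was 0.82 to 0.90 in GFP_plus and 0.79 to 0.83 in GFP_min, with overlap (same permutation test, p = 0.2). In these bulk samples fewer cells of a type and less RNA per cell cannot be told apart.

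The comparison asks how iron and heme genes differ between reporter-high and reporter-low CD11b+Gr1+ cells. Of the 31 tested members 12 were higher and 10 lower in GFP_plus, where 21% of all tested genes were higher and 27.6% lower. Without GFP_min replicate b the counts were 11 higher and 10 lower. At a size of at least 1 log2, 2 members rose and 4 fell, where 1.52% of all genes rose and 8.75% fell that far. The median difference of the tested members was 0.11, beside 0.0023 over all genes. The groups did not overlap in 24 of the 31, where 59.3% of all genes did not. These counts include Car1, which passed the filter through GFP_plus alone, and Cpox, which passed through GFP_min alone. The filter set the direction of both.

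Direction depends on how the arrays are scaled. If arrays are centred on ribosomal protein genes (42 of them), all differences shift by 0.53. Centring on the tested probe sets' median shifts them by 0.20, and centring on the spiked bacterial poly-A controls by −0.41. Higher members then numbered 21 with ribosomal centring, 17 with median centring and 5 with poly-A centring, and lower members 5, 8 and 17 in the same order. The share of higher ones among called members was 54.5% as deposited, 80.8% with ribosomal, 68% with median and 22.7% with poly-A centring. With these 3 centrings, quantile normalization and the deposited scale, 10 members kept their call and direction. The 5 that rose under all of them were Alas1, Tfrc, Steap4, Fbxl5 and Slc25a37, and the 5 that fell were Cpox, Fech, Nfs1, Hfe and Blvra. Cpox lay below the medians on all GFP_plus arrays and passed the filter through GFP_min alone, so its direction was set by the filter. For Fech, 1 of 4 tested probe sets was called higher. Of 12 neutrophil markers, 6 were higher as deposited, where 21% of all genes were, and 6 were not called. Those higher included Csf3r (0.71), Cxcr2 (0.55) and Cd177 (0.45). With poly-A centring 1 of the 12 was higher and 6 were lower. The part of these markers in the rises of members was not tested.

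**Figure D1:**
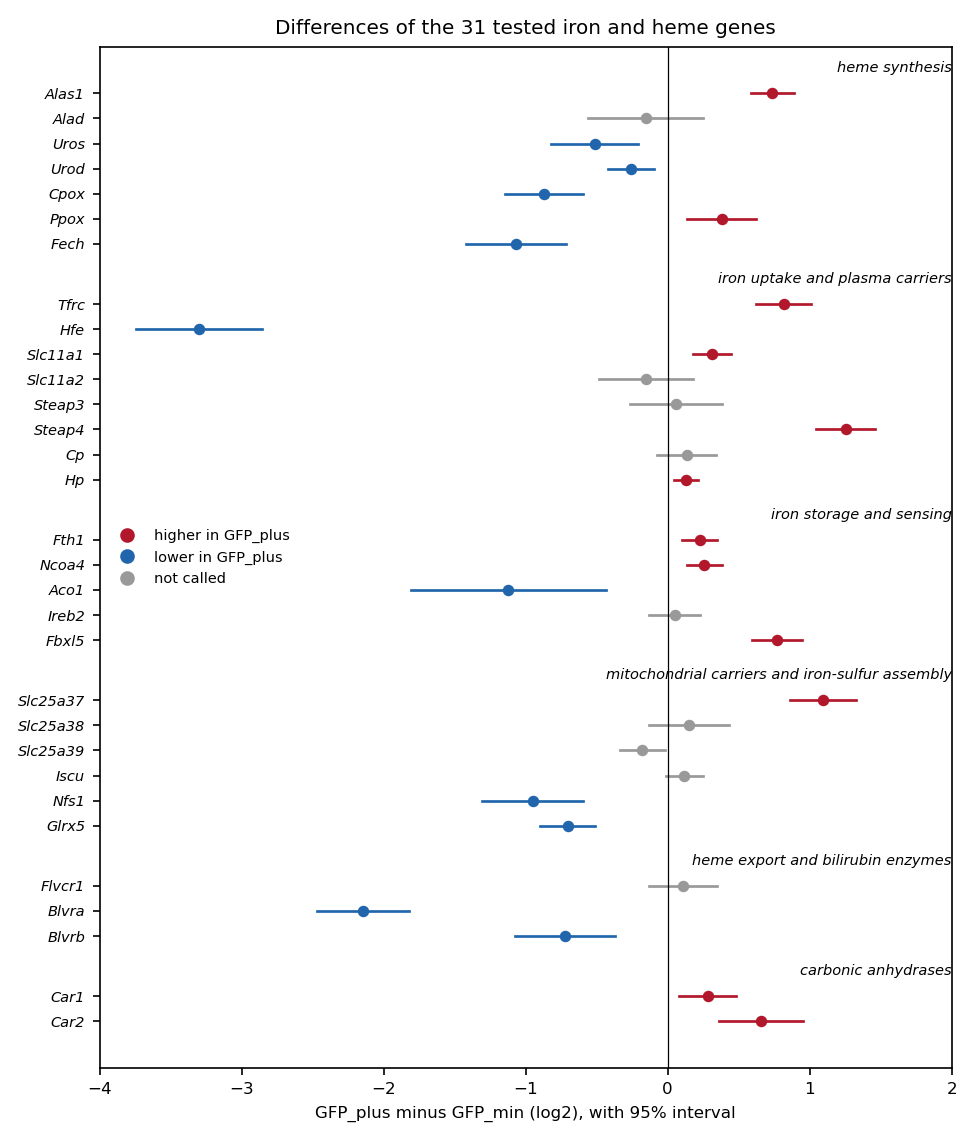
Difference of each of the 31 tested members, GFP_plus minus GFP_min in log2, with its 95% interval from limma, grouped by role. Red points were called higher and blue points lower in GFP_plus, and grey points were not called. Hfe (−3.30) and Blvra (−2.15) lie farthest to the left and Steap4 (1.25) and Slc25a37 (1.09) farthest to the right.

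**Figure D2:**
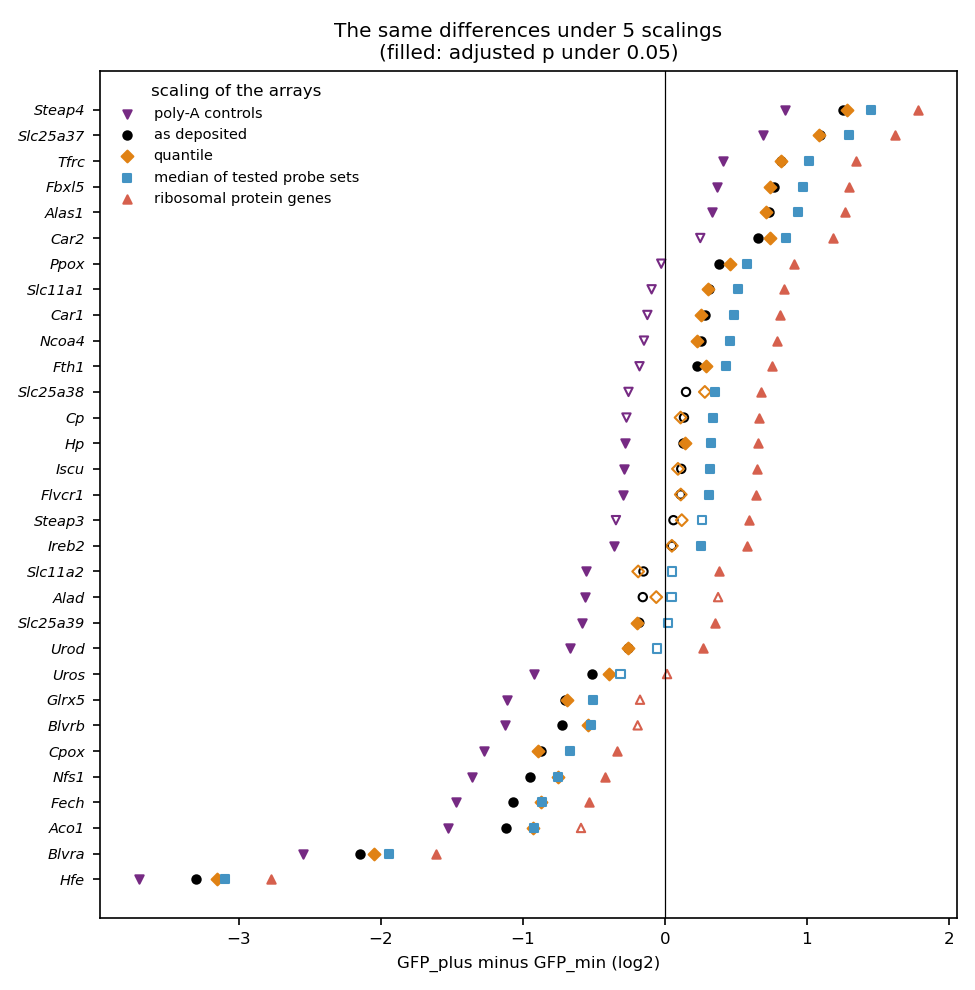
The same 31 differences in log2 under 5 scalings of the arrays, members in order of the deposited difference; filled symbols have a limma adjusted p under 0.05. A centring moves all members by the same amount (0.53, 0.20 or −0.41), so members that lie close enough to 0 change side.

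In heme synthesis the opening enzyme rose, and of 7 tested enzymes 2 were higher and 4 lower, where 21% of all genes were higher and 27.6% lower. The counts were 2 higher and 2 lower with median centring, 3 higher and 2 lower with ribosomal centring and 1 higher and 5 lower with poly-A centring. Their median of −0.26 became 0.27 with ribosomal centring. Cpox is among the lower enzymes in each of these counts, though its direction was set by the filter. Alas1, the housekeeping 5-aminolevulinate synthase and rate-limiting step, was 10.70, 10.61 and 10.77 in GFP_plus replicates a, b and c, against 9.91, 10.00 and 9.96 in GFP_min. All 3 GFP_plus arrays lay above all 3 GFP_min arrays, a rise of 0.74 (SE 0.07, limma adjusted p = 1.84e-05) or 1.67-fold, and its other probe set rose by 0.63. Alas2, the form used by red cell precursors, was 1.53, 1.59 and 2.03 in GFP_plus and 1.59, 1.45 and 1.60 in GFP_min, below the median of every array, so that no level can be compared.

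The middle of the pathway was lower or not called, with Alad and Uros not far above the array medians. Alad, which joins aminolevulinate into porphobilinogen, was 3.66, 3.25 and 3.86 in GFP_plus and 3.82, 3.47 and 3.94 in GFP_min, with overlapping groups (−0.16, 95% interval −0.56 to 0.25, limma adjusted p = 0.517). Uros, uroporphyrinogen III synthase, was 3.68, 3.77 and 3.42 in GFP_plus and 4.01, 4.25 and 4.15 in GFP_min, without overlap. Its difference of −0.51 (SE 0.14, adjusted p = 0.0127) was −0.31 and not called with median centring (0.0681) and turned to 0.02 with ribosomal centring. Urod, uroporphyrinogen decarboxylase, was 9.30, 9.31 and 9.20 in GFP_plus and 9.49, 9.56 and 9.53 in GFP_min, a difference of −0.26 (adjusted p = 0.0164). That call was lost without GFP_plus replicate c (−0.22, adjusted p = 0.0536) or GFP_min replicate c (−0.26, 0.0539). A second Urod probe set differed by −0.30 without a call, and ribosomal centring turned Urod to 0.27 with a call.

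The last 3 steps take place in mitochondria, and their enzymes did not move alike. Cpox, coproporphyrinogen oxidase, was 2.18, 2.50 and 2.19 in GFP_plus and 2.99, 3.18 and 3.31 in GFP_min. All GFP_plus values fell under the array medians, so it was at least 1.23-fold lower there (measured means 2.29 and 3.16). Cpox passed the filter through GFP_min alone, so the call (limma adjusted p = 0.000306) does not test its direction. Ppox, protoporphyrinogen oxidase, was 8.33, 8.02 and 8.12 in GFP_plus and 7.77, 7.85 and 7.71 in GFP_min, a rise of 0.38 (adjusted p = 0.0177). This call did not hold without GFP_plus replicate a (0.29, 0.0834) or GFP_min replicate c (0.35, 0.0630), nor with the mean of its 2 tested probe sets (0.16, 0.213), of which the second differed by −0.06.

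Fech, ferrochelatase, which inserts iron into the porphyrin ring, was 5.46, 5.37 and 5.49 in GFP_plus and 6.29, 6.81 and 6.43 in GFP_min, a difference of −1.07 (SE 0.16, limma adjusted p = 0.000399), 2.10-fold lower. Its 4 tested probe sets disagreed. A second one fell by 1.02, another differed by −0.30 without a call, and the dimmest, 3.66, 3.72 and 3.80 in GFP_plus and 3.23, 3.37 and 3.09 in GFP_min, rose by 0.50. Fech is thus lower by its brightest probe set and not by every one.

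**Figure D3:**
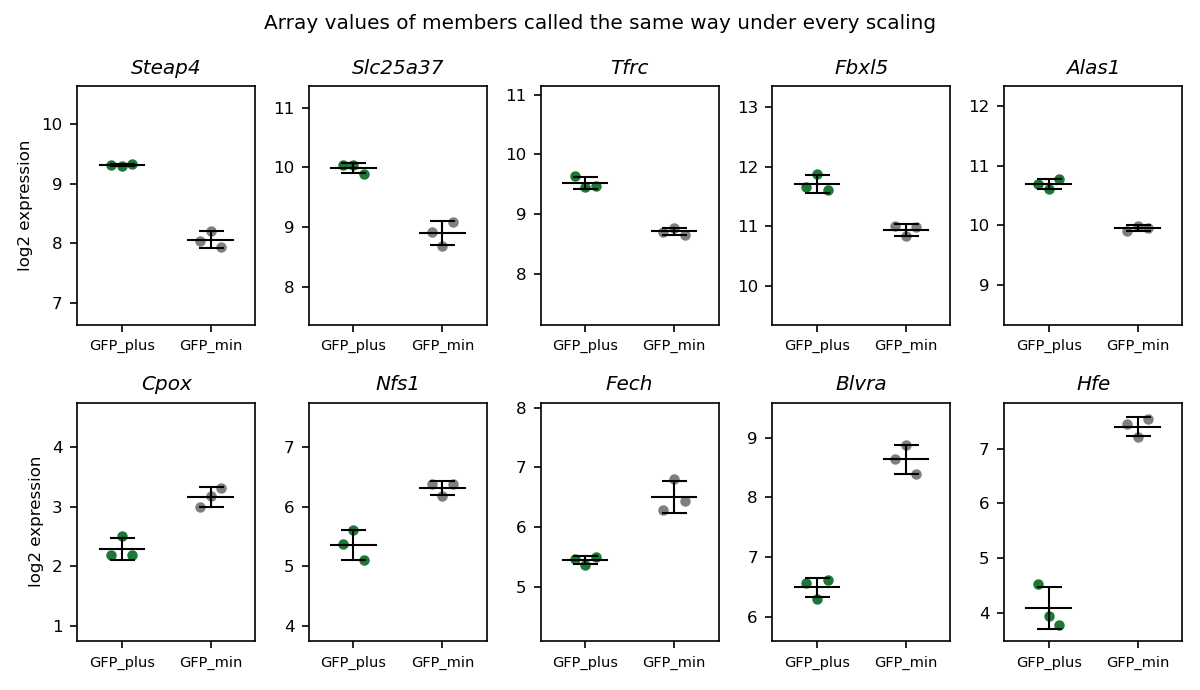
Log2 expression on each array of the 10 members called in the same direction under every scaling, with GFP_plus to the left of GFP_min; lines and bars are the mean and SD of 3 arrays, and each panel has its own axis range. No panel shows overlap between the groups, though Cpox passed the filter through GFP_min alone.

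Iron uptake genes split between the transferrin receptor, which rose, and its partner Hfe, which fell. Of 8 tested genes of uptake and plasma iron carriers 4 were higher and 1 lower, where 21% of all genes were higher and 27.6% lower. Their median of 0.13 turned to −0.27 with poly-A centring. Tfrc, the transferrin receptor, was 9.64, 9.45 and 9.48 in GFP_plus and 8.70, 8.77 and 8.65 in GFP_min, without overlap. The rise was 0.82 (SE 0.09, adjusted p = 4.37e-05) or 1.76-fold. It rests on a single bright probe set: 2 others and the array's 3 control probe sets for this gene lay between 1.75 and 2.57 on all arrays, below the array medians, and were not tested.

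Hfe, the MHC class I-like protein that binds the transferrin receptor and is mutated in human hemochromatosis, was 4.54, 3.96 and 3.80 in GFP_plus and 7.46, 7.20 and 7.54 in GFP_min. All GFP_plus arrays were far below all GFP_min arrays. The difference of −3.30 (SE 0.20, limma adjusted p = 1.01e-06), 9.86-fold lower, was the largest difference among the members in either direction. Monocyte markers moved the same way between these samples, with 11 of 11 lower, where 27.6% of all genes were. Among them were Ms4a6b (−6.21), Fn1 (−5.23) and S100a4 (−5.33), and the part of these markers in the fall of Hfe was not tested. Tfr2, the second transferrin receptor, was below the median on all 6 arrays, at 2.28 to 2.52 in GFP_plus and 2.36 to 2.47 in GFP_min. The probe set that Trf shares with Srprb, a subunit of the signal recognition particle receptor, was 8.93, 8.83 and 8.84 in GFP_plus and 9.58, 9.58 and 9.48 in GFP_min and cannot be given to either gene.

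Among metal reductases and transporters Steap4 and Slc11a1 rose in GFP_plus. Steap4, an endosomal and surface metalloreductase, was 9.31, 9.30 and 9.34 in GFP_plus and 8.04, 8.21 and 7.94 in GFP_min, a rise of 1.25 (SE 0.09, adjusted p = 4.38e-06) or 2.38-fold. Its other probe set, near the array medians, differed by 0.19 without a call. Steap3, the reductase of red cell precursors, was 3.41, 3.34 and 3.58 in GFP_plus and 3.09, 3.55 and 3.50 in GFP_min, with overlapping groups (0.06, interval −0.26 to 0.38). Slc11a1, the NRAMP1 metal transporter of phagosomes, was 10.52, 10.53 and 10.56 in GFP_plus and 10.27, 10.20 and 10.20 in GFP_min, a rise of 0.31 (adjusted p = 0.00205) that turned to −0.09 with poly-A centring. Its relative Slc11a2, the endosomal iron transporter DMT1, lay near the medians at 2.42 to 2.93 in GFP_plus and 2.56 to 2.94 in GFP_min and was not called (−0.15).

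Among plasma iron proteins Hp changed little, and Cp lay too near the array medians for its change to be read. Hp, haptoglobin, which binds free hemoglobin and is stored in neutrophil granules, was 13.54, 13.48 and 13.55 in GFP_plus and 13.37, 13.45 and 13.38 in GFP_min. The rise of 0.13 (adjusted p = 0.0218) was lost without GFP_plus replicate a (0.12, adjusted p = 0.0853) or c (0.11, 0.0617), without GFP_min replicate a (0.11, 0.0788) or c (0.11, 0.0842), and when no variance trend was fitted (0.238). It was −0.28 and called lower with poly-A centring. Cp, the ferroxidase ceruloplasmin, was 2.93, 2.95 and 3.05 in GFP_plus and 2.79, 2.86 and 2.87 in GFP_min and was not called (0.13, interval −0.07 to 0.34). Of its 8 probe sets only this 1 passed the filter.

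Among storage and sensing genes 3 of 5 tested were higher and 1 lower, where 21% of all genes were higher and 27.6% lower. Their median of 0.23 turned to −0.18 with poly-A centring. Fbxl5, the iron-sensing subunit of a ubiquitin ligase that marks iron regulatory proteins for breakdown, was 11.65, 11.87 and 11.60 in GFP_plus and 10.998, 10.83 and 10.99 in GFP_min. The groups did not overlap, and the rise was 0.77 (SE 0.08, limma adjusted p = 4.05e-05) or 1.71-fold. Ireb2, iron regulatory protein 2 and the best known target of Fbxl5, was 9.61, 9.64 and 9.43 in GFP_plus and 9.49, 9.48 and 9.57 in GFP_min, with overlap and no call (0.05, interval −0.13 to 0.23).

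Aco1, the cytosolic aconitase that acts as iron regulatory protein 1 when it lacks its iron-sulfur cluster, was 5.30, 6.09 and 4.89 in GFP_plus and 6.72, 6.02 and 6.92 in GFP_min. GFP_plus replicate b exceeded GFP_min replicate b, so the groups overlapped, and the difference of −1.12 (SE 0.31, adjusted p = 0.0143) was lost without GFP_plus replicate a (−1.06, 0.0514) or GFP_min replicate c (−0.94, 0.0539) and with ribosomal centring (−0.59, 0.107). A second, dimmer probe set was tighter, with 3.29, 3.42 and 3.54 in GFP_plus and 4.90, 5.10 and 5.05 in GFP_min, and fell by 1.60 (adjusted p = 8.96e-06).

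Ferritin probe sets did not share a call. Fth1, the ferritin heavy chain with the ferroxidase site, was 13.41, 13.53 and 13.32 in GFP_plus and 13.22, 13.12 and 13.24 in GFP_min, a rise of 0.23 (adjusted p = 0.00754) that was lost without the variance trend (0.0807). Its second probe set differed by −0.04 without a call. For Ftl1, 2 bright probe sets shared with a pseudogene differed by 0.01 and 0.00 without a call. A dimmer one, shared also with microRNA genes, was 5.96, 6.17 and 6.27 in GFP_plus and 5.85, 5.58 and 5.66 in GFP_min and was called higher (0.44, limma adjusted p = 0.0299), and none of these can be given to Ftl1 alone. Ncoa4, the receptor that carries ferritin to lysosomes, was 11.56, 11.62 and 11.55 in GFP_plus and 11.39, 11.26 and 11.31 in GFP_min, a rise of 0.26 (adjusted p = 0.00344) that was 0.16 and not called (0.0541) by the mean of its 2 probe sets. Poly-A centring turned Fth1 to −0.18 and Ncoa4 to −0.15, both without a call.

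The mitochondrial iron carrier Slc25a37 rose, and of 3 members that assemble iron-sulfur clusters Nfs1 and Glrx5 fell and Iscu was not called. Slc25a37, mitoferrin 1, which brings iron into mitochondria, was 10.04, 10.04 and 9.89 in GFP_plus and 8.91, 8.69 and 9.08 in GFP_min, a rise of 1.09 (SE 0.11, limma adjusted p = 2.55e-05) or 2.13-fold without overlap. Slc25a38, a glycine carrier that feeds heme synthesis, was 7.22, 7.06 and 7.18 in GFP_plus and 7.20, 6.91 and 6.90 in GFP_min and was not called (0.15, interval −0.13 to 0.43). Slc25a39, a mitochondrial glutathione carrier, was 9.87, 9.81 and 9.95 in GFP_plus and 10.00, 10.13 and 10.05 in GFP_min, without overlap and without a call (−0.18, adjusted p = 0.0630). Its other tested probe sets differed by −0.10, −0.06 and −0.02, also without a call.

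Of the assembly factors, Nfs1, the cysteine desulfurase that supplies sulfur, was 5.37, 5.61 and 5.10 in GFP_plus and 6.39, 6.17 and 6.38 in GFP_min. It fell by 0.95 (SE 0.16, adjusted p = 0.000882), 1.93-fold, and its other tested probe set fell by 0.43. Glrx5, a glutaredoxin that passes clusters on, was 8.48, 8.31 and 8.36 in GFP_plus and 9.04, 9.15 and 9.07 in GFP_min, a difference of −0.71 (SE 0.09, adjusted p = 0.000130) that was −0.17 and not called with ribosomal centring (0.0869). Iscu, the scaffold on which clusters form, was 10.86, 10.82 and 10.81 in GFP_plus and 10.66, 10.77 and 10.71 in GFP_min, without overlap and without a call (0.12, interval −0.01 to 0.25).

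Of 15 other assembly genes with a probe set of their own 14 were tested: 9 were lower and 0 higher (limma, and 0 higher at an unadjusted p under 0.05), with a median of −0.65, where 27.6% of all genes were lower. The monocyte markers fell in the same samples (11 of 11 lower, median −5.29), and their part in these falls was not tested. The count was 8 lower and 2 higher with median centring, 5 lower and 5 higher with ribosomal centring and 10 lower with poly-A centring. Cisd1, the outer membrane cluster protein mitoNEET, averaged 6.04 ± 0.09 in GFP_plus and 9.26 ± 0.23 in GFP_min (SD, n = 3 each), a difference of −3.23 (SE 0.13, adjusted p = 6.87e-08). Nubp1, a scaffold of the cytosolic machinery, fell by 2.34, the cochaperone Hscb by 1.60 and the ferredoxin Fdx1 by 1.09, and these 4 also fell with ribosomal centring. The 5 not called lay between −0.22 (Isca2) and 0.13 (Nfu1), the others being Isca1, Mms19 and Nubpl.

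**Figure D4:**
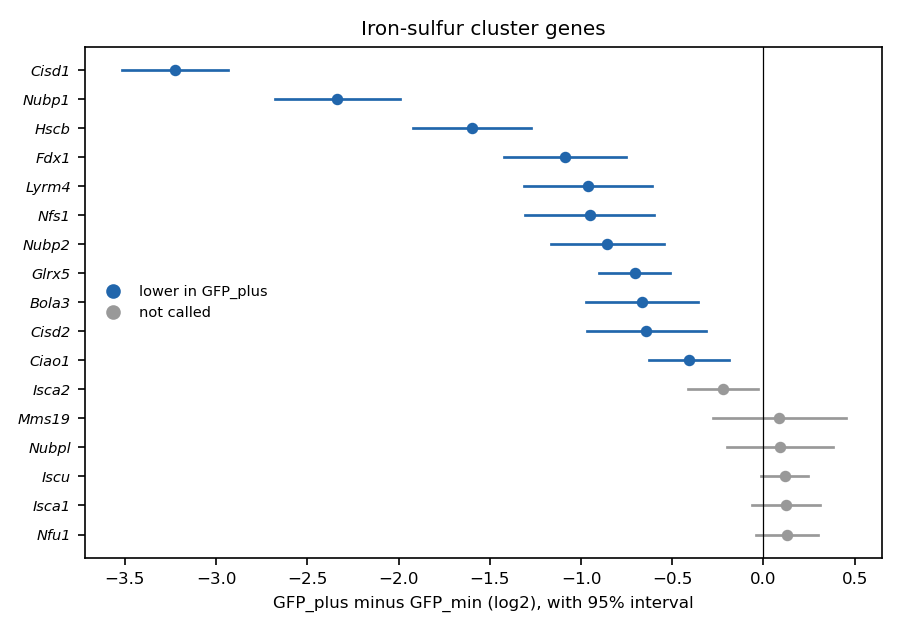
Difference in log2 with 95% interval for the 17 tested iron-sulfur cluster genes, of which Nfs1, Glrx5 and Iscu belong to the 36 genes; blue points were called lower in GFP_plus and grey points were not called. Of the 17, 11 were called lower, from Cisd1 (−3.23) to Ciao1 (−0.41).

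Bilirubin enzymes fell. Blvra, biliverdin reductase A, was 6.56, 6.31 and 6.61 in GFP_plus and 8.64, 8.88 and 8.39 in GFP_min, without overlap. The difference of −2.15 (SE 0.14, limma adjusted p = 2.19e-06), 4.42-fold lower, came second in size to Hfe. Blvrb, biliverdin reductase B, was 6.09, 6.05 and 5.96 in GFP_plus and 6.51, 7.08 and 6.68 in GFP_min, a difference of −0.72 (SE 0.16, adjusted p = 0.00437) that was −0.19 and not called with ribosomal centring (0.287). Flvcr1, known as a heme exporter, was 10.26, 10.57 and 10.17 in GFP_plus and 10.34, 10.09 and 10.23 in GFP_min, with overlap and no call (0.11, interval −0.13 to 0.35). Flvcr2 was below the median of every array (2.47 to 2.64 in GFP_plus, 2.42 to 2.58 in GFP_min). Of 3 tested in this group 2 were lower, where 27.6% of all genes were. By limma 0 were higher, where 21% of all genes were, nor was any at an unadjusted p under 0.05. The monocyte markers that moved with Hfe moved with these falls too, and their part was not tested.

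Carbonic anhydrases hydrate carbon dioxide and are abundant in red cells. Car2 was higher at levels near the array medians, and the direction of Car1 was set by the filter. Car2 was 3.70, 4.09 and 3.91 in GFP_plus and 3.13, 3.29 and 3.32 in GFP_min, a rise of 0.65 (SE 0.13, adjusted p = 0.00284) that was 0.25 and not called with poly-A centring (0.215). Car1 was 3.09, 3.01 and 2.99 in GFP_plus and 2.74, 2.76 and 2.74 in GFP_min. Since it lay below the medians in GFP_min it was at least 1.15-fold higher (measured means 3.03 and 2.75). It passed the filter through GFP_plus alone, so the call (limma adjusted p = 0.0281) does not test its direction. The call of Car1 was lost without any 1 of 5 arrays: GFP_plus a (0.25, adjusted p = 0.0859), GFP_plus b (0.29, 0.0547), GFP_min a (0.28, 0.0740), GFP_min b (0.29, 0.0537) or GFP_min c (0.28, 0.0772). Poly-A centring turned it to −0.12. Of basophil and eosinophil markers, 7 of 7 tested were also higher, among them Mcpt8 (4.21) and Prg2 (3.34), where 21% of all genes were. Cpa3 and Fcer1a lay below the medians on all GFP_min arrays and passed the filter through GFP_plus alone. For Cpa3 the rise is thus a bound, at least 2.23-fold. Epx, Prg3, Il5ra and Ccr3 were too dim to test. The part of these markers in the carbonic anhydrases was not tested.

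The name of erythroid enzyme genes was checked against 16 red cell markers with a probe set of their own. Of these, 10 were below the median on all 6 arrays, among them Klf1, Gata1 and the probe set of Hba-a1 alone, and 4 passed the filter on dim probe sets. Their mean per array was 2.54 to 2.68 in GFP_plus and 2.40 to 2.45 in GFP_min. The 1 marker called was Tal1, also expressed in mast cells and progenitors, at 4.25 ± 0.23 in GFP_plus and 3.21 ± 0.29 in GFP_min (1.04, adjusted p = 0.000913). Slc4a1, the red cell anion exchanger, averaged 3.09 in GFP_plus and 2.94 in GFP_min and was not called (limma adjusted p = 0.274). A probe set shared by beta-globin genes was 5.80, 5.54 and 5.99 in GFP_plus and 5.27, 5.55 and 5.83 in GFP_min, above the medians with overlapping groups. Of 3 probe sets shared by the alpha-globin genes Hba-a1 and Hba-a2, 2 were also above the medians on all 6 arrays with overlapping groups. Their means were 5.80 and 5.83 in GFP_plus, against 5.44 and 5.77 in GFP_min, so globin signal was present in both groups. Alas2 and Tfr2, both strongly expressed in red cell precursors, were dim too, so the 36 are called iron and heme genes here.

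**Figure D5:**
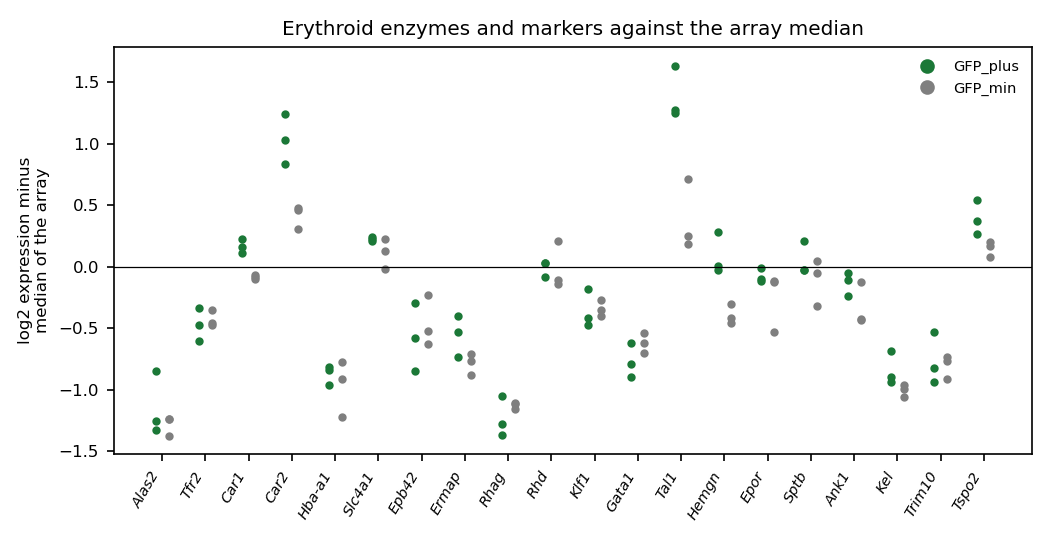
Log2 expression minus the median of the same array for Alas2, Tfr2, Car1, Car2 and 16 red cell markers, one point per array with GFP_plus to the left. Most points lie below 0, the array median, in both groups; Tal1, Car2 and Tspo2 lie above it in both.

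Related members were set against each other within each array, a comparison that centring does not move. Of 10 listed pairs, 6 had both genes tested. The shift of Steap4 exceeded that of Steap3 by 1.19 (0.66 with the mean of each gene's probe sets) and that of Slc25a37 exceeded that of Slc25a38 by 0.94. The shift of Blvra minus that of Blvrb was −1.42, and that of Aco1 minus that of Ireb2 was −1.17. In these 4 pairs the groups did not overlap, and each had an exact permutation p of 0.1, two-sided, the smallest 3 against 3 can give (0.12 adjusted over the 6 pairs). Slc11a1 and Slc11a2 shifted apart by 0.46 with overlap (exact p = 0.2, adjusted 0.2). Slc11a2 lay near the array medians and Steap3 not far above them, at 3.09 to 3.58, so dim signal limits what their shifts show. For Car2 and Car1 no difference is given, since Car1 lay below the medians in GFP_min and its shift is only a bound. The design cannot reach 0.05 here, so these pair differences stand as values.

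Other genes of the pathway outside the 36 were mixed. Of 37 tested in the heme, iron and iron-sulfur lists 5 were higher and 13 lower, where 21% and 27.6% of all genes were. In iron transport and control 3 of 13 were higher and 2 lower. Slc40a1, ferroportin, the only known iron exporter, was 11.98, 12.12 and 11.99 in GFP_plus and 11.44, 11.28 and 11.44 in GFP_min, a rise of 0.64 (SE 0.06, limma adjusted p = 3.12e-05) that was 0.24 and not called with poly-A centring (0.0656). Hamp, the hormone hepcidin that removes ferroportin from the surface, rose by 0.61 near the array medians (3.44 ± 0.24 in GFP_plus, 2.83 ± 0.20 in GFP_min). Nfe2l2, the antioxidant response factor NRF2, rose by 0.32, while Lrp1, a receptor for heme bound to hemopexin, fell by 4.81 (3.40 ± 0.21 in GFP_plus, 8.21 ± 0.07 in GFP_min, adjusted p = 8.07e-09).

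In heme synthesis, transport and breakdown outside the 36, 2 of 10 were higher and 2 lower, near the 21% and 27.6% of all genes. Hmox1, the inducible heme oxygenase that makes biliverdin, was 6.55, 6.69 and 6.68 in GFP_plus and 5.92, 6.18 and 5.91 in GFP_min, a rise of 0.63 (adjusted p = 0.00323), whereas Hmox2, its constitutive form, fell by 0.28 (adjusted p = 0.0184). Tmem14c, a porphyrin carrier of the inner membrane, fell by 0.29, and the mitochondrial transporter Abcb10 rose by 0.33 (adjusted p = 0.0260). Ribosomal centring turned Hmox2 to 0.26 and Tmem14c to 0.24, and poly-A centring turned Abcb10 to −0.08 and Nfe2l2 to −0.09 and left Hmox1 (0.23) and Hamp (0.20) without a call. Hmox2 lost its call without GFP_plus a (−0.28), GFP_plus b (−0.23), GFP_min b (−0.22) or GFP_min c (−0.28), and Abcb10 without GFP_plus a (0.26), GFP_min a (0.33) or GFP_min c (0.29). Marrow macrophages, which recycle red cell iron, express Slc40a1 and Hmox1. Of 9 tested macrophage markers, Slc40a1 among them, 5 were higher, including Vcam1 (2.02), and 2 lower, Adgre1 (−1.43) and Axl. Axl lay below the medians on all GFP_plus arrays and passed the filter through GFP_min alone, so its direction was set by the filter. Over all genes 21% were higher and 27.6% lower. The part of these markers in the rises of Slc40a1 and Hmox1 was not tested.

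Promoter sequence from RefSeq (mouse GRCm38.p6, the 250 bases before a transcription start) was found for 27 of the 36 genes. Each window was searched on both strands for 4 motifs, none of which overlapped another in the windows printed here. TGACNNNGC, the core of the antioxidant response element bound by NRF2 and BACH1, lay in 6 of the 27 and in 11.5% of all 27025 genes. It lay in 3 of 9 lower members (Blvra, Hfe and Nfs1), in 1 of 7 higher members (Ncoa4) and in the uncalled Flvcr1 and Slc25a38. TTGCNNAA, a form of the C/EBP site, lay in 4 of the 27 and in 10.8% of all genes. It lay in 2 of 7 higher members (Steap4 and Fth1), in 0 of 9 lower members and in the uncalled Cp and Steap3. The GATA motif (AGATAA or AGATAG, and also TGATAA or TGATAG) lay in 7 of the 27, Alas2 and Tfr2 among them, and in 29.7% of all genes, and the E-box CACGTG in 4 of the 27 and in 6.9%. GATA letters lay in 3 of 9 lower and 1 of 7 higher members, the same counts as TGACNNNGC. The E-box lay in 2 of 9 lower and 0 of 7 higher members. A link between any motif and direction was not tested. The 4 windows shown belong to members that kept their call under every scaling and hold one of the first 2 motifs, which is in capitals. These are matches of letters, not binding sites.
Steap4 (rose by 1.25; chr5:7960222-7960471, plus strand; C/EBP letters begin 87 bases before the start): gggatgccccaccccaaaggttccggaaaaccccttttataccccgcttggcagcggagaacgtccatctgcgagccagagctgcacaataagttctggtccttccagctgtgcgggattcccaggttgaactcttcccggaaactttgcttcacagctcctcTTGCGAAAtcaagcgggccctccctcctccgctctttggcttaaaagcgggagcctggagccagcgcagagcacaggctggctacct
Hfe (−3.30; chr13:23710855-23711104, minus strand; TGACNNNGC begins 67 bases before the start): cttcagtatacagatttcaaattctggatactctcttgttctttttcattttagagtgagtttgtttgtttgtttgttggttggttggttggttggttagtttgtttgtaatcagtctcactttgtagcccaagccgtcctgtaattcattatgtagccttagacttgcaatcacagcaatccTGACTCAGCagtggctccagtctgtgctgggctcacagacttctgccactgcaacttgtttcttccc
Blvra (−2.15; chr2:127070407-127070656, plus strand; the motif lies on the other strand, 49 bases before the start): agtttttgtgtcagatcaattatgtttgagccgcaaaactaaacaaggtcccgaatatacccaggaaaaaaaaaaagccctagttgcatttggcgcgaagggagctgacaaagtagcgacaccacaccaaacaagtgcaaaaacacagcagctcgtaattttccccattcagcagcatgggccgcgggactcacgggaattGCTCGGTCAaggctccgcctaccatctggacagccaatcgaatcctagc
Nfs1 (−0.95; chr2:156144187-156144436, minus strand; 2 matches on the other strand, 244 and 205 bases before the start): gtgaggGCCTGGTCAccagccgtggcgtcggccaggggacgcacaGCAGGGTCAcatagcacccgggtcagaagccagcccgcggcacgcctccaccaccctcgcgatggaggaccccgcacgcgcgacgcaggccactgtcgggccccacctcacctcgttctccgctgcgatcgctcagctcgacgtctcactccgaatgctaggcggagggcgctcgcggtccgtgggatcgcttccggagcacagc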

How the data were processed

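Total RNA of sorted marrow cells was labelled with biotin (100 ng, Affymetrix 3' IVT kit), per the labels' protocols. Log2 values of 45101 probe sets on 6 arrays were deposited by the authors in a single table. The submitters' processing notes name GCRMA; version and settings: not given in the sources used here. Log2 was inferred from the range, and no further normalization was applied. GEO's annotation of the platform named the probe sets (34958 with 1 symbol, 932 with several), and 34754 were updated through RefSeq gene IDs.

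Samples were grouped by title. Without the 64 control probe sets, 22956 lay above their array's median on 3 or more of 6 arrays and were tested. They were fitted with limma 3.58.1 in R 4.3.3 (lmFit, eBayes with intensity trend; threshold 0.05). Where a group lay below the median on all its arrays, the fold is a bound against those medians. Named were all 36 members. By adjusted p, up to 4 called genes of each other pathway list and up to 3 of each marker list were added. For red cells Hba-a1, Slc4a1, Klf1 and Gata1 were named. The uncalled iron-sulfur genes, Ciao1, the macrophage marker Axl, and the basophil and eosinophil markers Fcer1a, Epx, Prg3, Il5ra and Ccr3 were named after their values were seen. The members, lists and pairs were chosen with earlier results of these data known.

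On simulated data with 200 of 10810 genes changed, the fit recovered 34% of changes of 0.5 log2 and 90% of changes of 1 log2. It called 7 unchanged genes. In the deposited data 48.7% of tested genes were called, a far larger share than was changed in the simulation. The adjusted p depends on that share, so these recovery rates do not carry over to this comparison. Same-letter samples of the 2 groups deviated oppositely (r −0.18, −0.30 and −0.22), so letters were not used as pairs. Plots were made in Python 3.11.15 with matplotlib 3.10.9. With 6 arrays, precision is limited by their number.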

Additional observations from a re-analysis of the deposited data

How the results depend on the processing

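Of the alternatives to the deposited scale and the fit, all left the member counts within 1.5 times of 12 higher and 10 lower, except ribosomal centring (21 and 5), poly-A centring (5 and 17) and a size of at least 1 log2 (2 and 4). Other pathway genes (5 higher, 13 lower) numbered 25 and 6 with ribosomal centring, 0 and 23 with poly-A centring (1 higher at an unadjusted p under 0.05), 0 and 5 at 1 log2 or more, and 11 higher with median centring. Over all genes, higher genes made up 43.2% of calls as deposited, 50.2% with quantile normalization, 68.1% with median, 85.8% with ribosomal and 6.51% with poly-A centring. Leaving out 1 sample gave 9 to 11 members higher and 8 to 10 lower, and 4 to 7 other genes higher and 12 to 14 lower.

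Signs turned with poly-A centring for Ppox (−0.025), Slc11a1 (−0.093), Steap3 (−0.34), Cp (−0.27), Hp (−0.28), Fth1 (−0.18), Ncoa4 (−0.15), Ireb2 (−0.35), Slc25a38 (−0.26), Iscu (−0.29), Flvcr1 (−0.29) and Car1 (−0.12). With ribosomal centring they turned for Alad (0.38), Uros (0.016), Urod (0.27), Slc11a2 (0.38) and Slc25a39 (0.35), and with median centring for Alad (0.047), Slc11a2 (0.052) and Slc25a39 (0.022). Without 1 sample, 3 uncalled members spanned 0: Alad from −0.29 to 0.014, Steap3 from −0.085 to 0.14 and Flvcr1 from −0.0060 to 0.19. The cause of these turns is the shift itself for centrings and was not tested otherwise.

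With the replicate letter as a block, 9 members were higher and 9 lower, and 4 lost their call: Urod (−0.26, limma adjusted p = 0.0745), Ppox (0.38, 0.0567), Hp (0.13, 0.103) and Car1 (0.28, 0.0623). For other pathway genes the block gave 4 higher and 12 lower; Hmox2 (−0.28, 0.0681) and Abcb10 (0.33, 0.0769) lost theirs.

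Pair differences without 1 sample ranged from 1.07 to 1.33 (Steap4 and Steap3), 0.85 to 1.09 (Slc25a37 and Slc25a38), −1.52 to −1.30 (Blvra and Blvrb), −1.46 to −0.97 (Aco1 and Ireb2) and 0.36 to 0.60 (Slc11a1 and Slc11a2). With the mean of probe sets the first was 0.66, since that mean includes a dim Steap4 probe set. Signal near the array medians limits Alas2, Tfr2, Flvcr2, Slc11a2, Cp, Car1 and Cpox, and to a lesser extent Steap3, Alad, Uros and Car2.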
